A study of Mus musculus with 4 samples.

Results

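Soleus-only open regions are the ATAC-seq peaks of the mouse soleus (Sol) with no peak of the extensor digitorum longus (EDL), quadriceps (Quad) or diaphragm (Dia) overlapping them or lying within 500 bp on the same chromosome, measured edge to edge. They were selected on these peak calls, and 4006 of the 28784 Sol peaks met the rule, out of 120839 peaks in the 4 lists. ATAC-seq maps open chromatin with the Tn5 transposase, which inserts sequencing adapters where DNA is accessible. Each muscle was represented by 1 library from sedentary wild type mice, C57BL/6 in the labels and male C57BL/6J in the study's methods, with no age in the labels, which call every library pooled without saying how many animals were combined. Whole frozen muscle was pulverized, so nuclei of fibers, vessels, nerve and connective tissue are mixed, and fewer nuclei of a type cannot be told apart from less open DNA per nucleus.

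The soleus is a postural muscle rich in slow and oxidative fibers, whereas EDL and Quad are mostly fast and glycolytic and Dia is a mixed respiratory muscle. Slow fibers use their own isoforms of myosin, troponin and the calcium pump, and calcineurin with NFAT, MEF2 factors, PGC1α and the estrogen-related receptors are known to promote the slow and oxidative program. Open regions away from promoters often hold binding sites of such factors. With 1 library per muscle no p-value was computed. The 95% intervals, by Wilson's method for a share and Newcombe's for a difference between 2 shares, cover counting error only and treat peaks as independent, although neighboring peaks share a locus.

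The sequences of 10 soleus-only peaks are shown as examples, most of them chosen for a MEF2 match. They are both peaks at Myh7, the slow myosin heavy chain gene, the highest-scored soleus-only peak with a MEF2 match at each other gene of the slow sarcomere or slow-program lists, and the highest-scored peaks of Esrrg and Mir1904, which are among the 3 genes with most soleus-only peaks when ties, here of Esrrg with Gm20125 and Palld, are broken by the best score. The other of these 3 genes, 2010111I01Rik, is left out because its peak overlaps 62 bases of an exon. The choice favors MEF2, which 3 of the 22 soleus-only peaks at slow sarcomere genes held. All 10 sequences are the plus strand of mm10, 207 bases long, and capitals mark each match to the MEF2 motif on either strand.
Myh7 (chr14:55003840-55004046): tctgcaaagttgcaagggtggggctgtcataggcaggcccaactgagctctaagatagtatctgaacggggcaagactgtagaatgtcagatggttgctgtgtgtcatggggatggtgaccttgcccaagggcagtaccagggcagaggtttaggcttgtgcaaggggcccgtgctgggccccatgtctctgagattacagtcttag
Myh7 (chr14:55004650-55004856): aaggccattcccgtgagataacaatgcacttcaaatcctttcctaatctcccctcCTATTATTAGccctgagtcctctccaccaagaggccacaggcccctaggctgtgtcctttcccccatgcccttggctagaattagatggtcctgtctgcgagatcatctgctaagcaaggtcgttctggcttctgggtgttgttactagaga
Rcan2 (chr17:43855191-43855397): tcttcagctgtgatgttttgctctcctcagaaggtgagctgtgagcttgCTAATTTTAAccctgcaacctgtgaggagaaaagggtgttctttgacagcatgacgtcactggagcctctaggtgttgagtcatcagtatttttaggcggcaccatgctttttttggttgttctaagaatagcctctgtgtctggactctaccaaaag
Prox1 (chr1:190061981-190062187): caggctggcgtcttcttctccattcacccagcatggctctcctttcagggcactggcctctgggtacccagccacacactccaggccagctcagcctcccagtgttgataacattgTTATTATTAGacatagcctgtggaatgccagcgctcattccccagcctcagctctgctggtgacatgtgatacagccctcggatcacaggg
Myh7b (chr2:155612043-155612249): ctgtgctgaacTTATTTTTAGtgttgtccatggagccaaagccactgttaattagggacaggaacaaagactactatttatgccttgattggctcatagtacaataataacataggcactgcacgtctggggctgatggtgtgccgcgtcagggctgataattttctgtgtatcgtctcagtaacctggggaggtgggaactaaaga
Sln (chr9:53852186-53852392): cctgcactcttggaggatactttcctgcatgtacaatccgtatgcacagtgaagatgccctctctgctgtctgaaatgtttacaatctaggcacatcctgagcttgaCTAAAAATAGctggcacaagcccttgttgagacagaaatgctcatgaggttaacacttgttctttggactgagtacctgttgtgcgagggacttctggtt
Tead1 (chr7:112733539-112733745): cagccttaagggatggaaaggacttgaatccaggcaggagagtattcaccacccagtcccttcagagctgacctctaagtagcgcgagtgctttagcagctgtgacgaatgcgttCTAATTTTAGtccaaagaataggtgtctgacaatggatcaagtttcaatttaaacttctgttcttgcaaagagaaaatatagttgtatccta
Ppargc1a (chr5:51125256-51125462): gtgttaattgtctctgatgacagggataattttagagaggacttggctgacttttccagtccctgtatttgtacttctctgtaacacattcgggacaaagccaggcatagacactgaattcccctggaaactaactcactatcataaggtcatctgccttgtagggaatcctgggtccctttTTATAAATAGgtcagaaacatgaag
Esrrg (chr1:187907961-187908167): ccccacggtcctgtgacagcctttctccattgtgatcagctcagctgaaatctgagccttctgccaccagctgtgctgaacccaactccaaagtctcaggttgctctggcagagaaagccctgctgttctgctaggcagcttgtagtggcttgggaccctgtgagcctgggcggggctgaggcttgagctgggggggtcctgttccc
Mir1904 (chr13:109756903-109757109): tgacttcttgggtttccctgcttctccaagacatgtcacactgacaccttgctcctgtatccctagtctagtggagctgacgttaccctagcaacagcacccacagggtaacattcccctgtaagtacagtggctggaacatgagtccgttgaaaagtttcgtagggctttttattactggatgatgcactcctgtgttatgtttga

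Each Myh7 peak lay upstream of the gene in intergenic DNA, centered 9317 and 10127 bp before the transcription start site (TSS). Myh7 had no peak in the EDL, Quad or Dia list. The Peak Score, the scaled tag count of a peak, was 7.93 for the nearer peak and 7.17 for the farther, or percentiles 57.4 and 50.5 of the Sol list. Of the pair, the farther one held 1 MEF2 match and the nearer held none. At Myh7b, which encodes a related slow myosin, the soleus-only peak with a MEF2 match lay in intron 2, 903 bp past the TSS, with a score of 6.21, and a Dia peak lay 1215 bp away. Mir499, the microRNA gene inside Myh7b, had 2 soleus-only peaks with scores of 6.79 and 7.07 and no peak in the other lists. The nearer of these lay in intron 11 of the Myh7b transcript, 2894 bp upstream of Mir499.

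Among the adult fast myosins, Myh4 had a promoter peak in EDL (score 12.8) and Quad (score 10.4) and none in Sol or Dia. Its single Sol peak, with a score of 4.68, was soleus-only and lay in an exon 16960 bp past the TSS. Myh2, the myosin of fast oxidative fibers, had 1 Sol peak, which overlapped peaks of EDL and Quad. Myh1 had 1 peak, in Quad.

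Most soleus-only peaks were weak. Their median score was 4.49, against 7.17 for the whole Sol list, and their median percentile was 15.3 (quartiles 7.41 and 30.0). Only 318 of 4006, or 7.94%, scored above the median of the list. The rule uses peak calls with thresholds, so these scores are given as a description. The lowest score was 3.06 in Sol, 3.27 in EDL, 3.20 in Quad and 3.63 in Dia, and 95 soleus-only peaks (2.37%) scored below the lowest Dia score. By the same rule 9.59% of EDL peaks, 26.5% of Quad peaks and 9.79% of Dia peaks were found in 1 list only, against 13.9% of Sol peaks. The median percentile of these sets was 16.3 in EDL, 22.1 in Quad and 14.1 in Dia, so low scores were shared by the peaks of every single list.

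**Figure D1:**
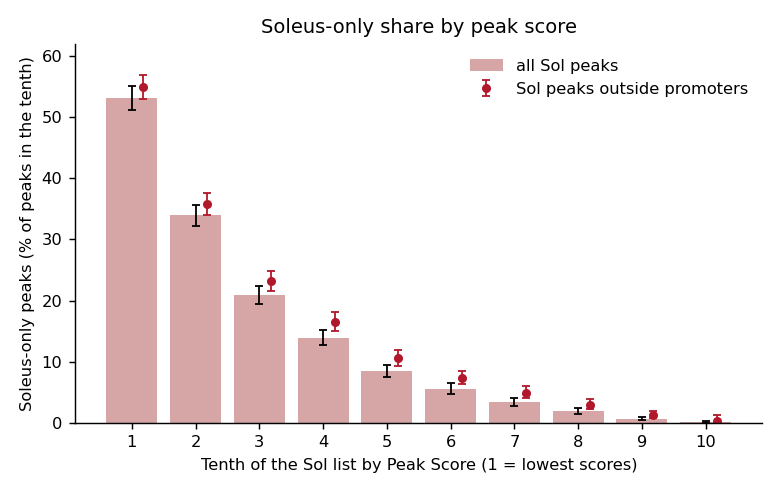
Share of Sol peaks that were soleus-only (y axis, percent) in 10 steps of Peak Score percentile (x axis). Bars are all Sol peaks and points are peaks outside promoters, with 95% Wilson intervals. The share fell from 53.2% in the lowest group to 0.0694% in the highest.

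In the lowest group by score 1380 of 2594 peaks were soleus-only, and in the highest 2 of 2883. The median soleus-only peak lay 11884 bp from the nearest peak of any other list, 420 (10.5%) lay within 2 kb and 284 (7.09%) lay over 100 kb away. The nearest peak belonged to Quad, the longest list, for 46.0% of them, to EDL for 27.0% and to Dia for 27.0%. Within 50 bp beyond the 500 bp limit lay 22 soleus-only peaks, with a median score of 5.64. The highest were at the Ppara promoter (score 11.9, gap 529 bp), in intron 2 of Eif4e (score 10, gap 535 bp) and in exon 2 of Perm1 (score 10, gap 550 bp). Within 50 bp short of it lay 23 Sol peaks that were not members, with a median score of 4.68. The highest were at Dazap2 (score 15.9, gap 461 bp), Parp16 (score 9.56, gap 500 bp) and A330094K24Rik (score 7.36, gap 459 bp).

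The 10 highest-scored soleus-only peaks all lay outside promoters. The highest score, 17.7 (percentile 93.2), was in the first intron of Fhl3, which encodes a LIM domain protein of muscle, at chr4:124703566-124703772, 1788 bp from an EDL peak. It was followed by peaks in the first intron of Adssl1, the muscle enzyme of the purine nucleotide cycle (15.4), in intron 2 of Gys1, muscle glycogen synthase (14.9), and in the first intron of Map2k3, a kinase upstream of p38 (14.8). Peaks in Ldb3, a Z-disc protein (14.0), Coq8a, of coenzyme Q synthesis (13.2), upstream of Apobec2 (13.2) and of Atp2a2, the slow calcium pump SERCA2 (13.0), and in the first intron of Pcbp4 (12.6) were also among the 10 highest. Of these 10 genes, 8 also had a Sol peak that was not soleus-only. Their gaps to the next list ran from 845 bp at Apobec2 to 9254 bp at Pcbp4, and none of these peaks held a MEF2 match.

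Soleus-only peaks were rare at promoters. Promoters held 139 of them, or 3.47% (95% interval 2.95 to 4.08), against 36.5% of the other Sol peaks, a difference of -32.99 percentage points (-33.8 to -32.1). Of all Sol promoter peaks 1.52% were soleus-only, and of all Sol peaks outside promoters 19.7%. Gene bodies held 52.4% of the soleus-only peaks and intergenic DNA 44.2%, against 35.7% and 27.8% of the other Sol peaks. Promoters were also scarce in the peaks found in 1 other list only, at 3.91% in EDL, 5.49% in Quad and 8.19% in Dia. The difference was below 0 in all 4 score levels tested. In the lowest 25% of the list by score 2.97% of soleus-only peaks were promoters against 11.4% of the others, and in the highest 25% 7 of 44 (15.9%) against 65.5%.

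**Figure D2:**
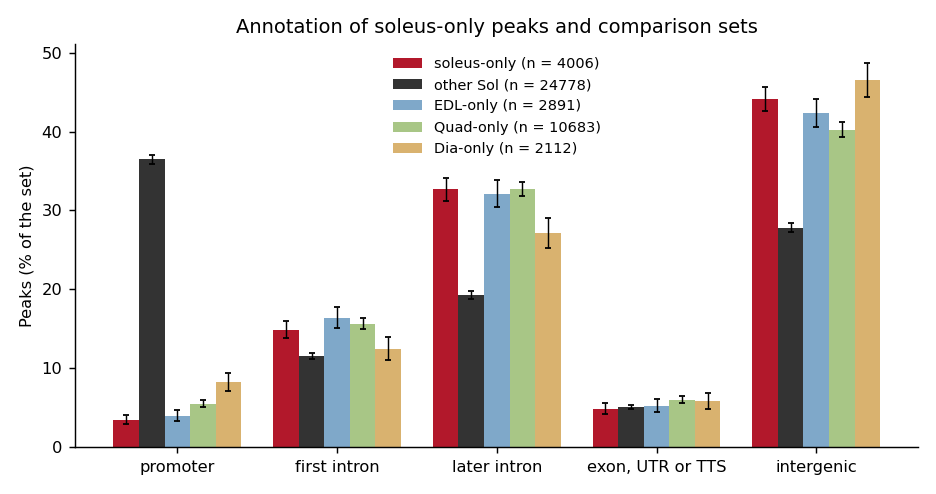
Annotation (x axis) of soleus-only peaks, the other Sol peaks and the peaks found only in EDL, Quad or Dia, as percent of each set (y axis) with 95% Wilson intervals. Promoters made up 3.47% of soleus-only peaks and 36.5% of the other Sol peaks.

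Soleus-only peaks lay farther from the nearest TSS. The median distance to the TSS was 29401 bp for soleus-only and 7140 bp for the other Sol peaks, and outside promoters it was 31683 against 23776 bp. Over 50 kb from the TSS lay 35.5% of soleus-only peaks (34.1 to 37.0), against 18.5% of the others. Outside promoters this difference was 7.64 percentage points (5.97 to 9.33). The share over 50 kb was 30.0% for EDL-only, 33.8% for Quad-only and 29.2% for Dia-only peaks. Outside promoters, soleus-only peaks were in the first intron less often than the other Sol peaks, by -2.66 points (-3.92 to -1.34), and in later introns more often, by 3.58 points (1.94 to 5.25). Across autosomes the soleus-only share ran from 11.1% on chromosome 7 to 17.6% on chromosome 3, and on X it was 8.09% (6.02 to 10.8).

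The 4006 peaks were assigned by nearest TSS to 3174 genes, and a peak can lie far from that TSS or inside another transcript. The highest-scored soleus-only peak of Mir1904 lay 146803 bp upstream of its TSS, in intron 4 of another transcript. That of Epas1 lay 120535 bp upstream, in intron 14 of another transcript. Of the 3174 genes, 2562 had a single soleus-only peak and 158 had at least 3. A further Sol peak was present at 2354 of them, and 2800 (88.2%) had a peak in another list, against 96.9% of all 13961 genes with a Sol peak. The genes with most soleus-only peaks were 2010111I01Rik with 8 of 17 Sol peaks, Mir1904 with 7 of 16, and Esrrg, the estrogen-related receptor gamma, with 6 of 10. Gm20125 (6 of 12) and Palld, an actin-crosslinking protein (6 of 15), followed. Those with 5 were Pdlim5, a Z-disc protein (of 13), Zfp608 (of 16), Foxp1, a transcription factor (of 14), Cdh13, a cadherin (of 15), Asap1 (of 16), Epas1, the hypoxia factor HIF2α (of 13), Limch1 (of 13), Zfp462 (of 13) and Pabpc2 (of 7). Of the 26 genes with 4, the one with the highest-scored soleus-only peak was Nuak1, a kinase gene (4 of 9).

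Soleus-only peaks within 10 kb of each other formed 138 groups, which held 283 of them (7.06%). The longest, with 4 peaks over 22117 bp, lay at Mypn, the Z-disc protein myopalladin. Groups of 3 lay at Myl3, Fhl1, Trim72, a membrane repair protein, Edem1 and Olfr1331.

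At 429 genes the Sol list had a peak and the other 3 lists had none, and 24 of these had at least 2 Sol peaks. A330049N07Rik, Dhrs2, Olfr1331, Ugt8a and Zp3r had 3 each, all soleus-only. The highest scores at these 5 genes ran from 4.59 at Zp3r to 7.26 at A330049N07Rik. The peaks of A330049N07Rik and Dhrs2 were intergenic, 210076 to 246939 bp and 31823 to 126444 bp from the TSS. Of the next genes, with 2 Sol peaks each, Scarna17, Myh7, Mir499 and 1700120E14Rik had both as soleus-only and Lin52 had 1.

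Genes of the slow sarcomere and of slow calcium handling held soleus-only peaks often. Their list also counts Myh2, the myosin of fast oxidative fibers, whose 1 Sol peak was not soleus-only. Of 56 Sol peaks at the 20 genes of this list, 22 were soleus-only, or 39.3% (27.6 to 52.4), against 13.9% of all Sol peaks. Outside promoters the count was 19 of 46, or 41.3%, against 19.7%, and the difference from the other Sol peaks outside promoters was 21.6 points (8.61 to 36.0). Their median percentile by score was 63.9, against 15.3 for all soleus-only peaks. The same genes had 2 of 34 EDL peaks in EDL only (5.88%), 8 of 43 Quad peaks in Quad only (18.6%) and 1 of 22 Dia peaks in Dia only (4.55%).

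Myl3, the essential light chain of slow and ventricular myosin, had its 3 Sol peaks all soleus-only. Their scores were 11.9 at the promoter, 138 bp upstream of the TSS, and 12.4 and 11.2 in the first intron, 838 and 2381 bp past it. The other lists held 1 peak at Myl3, in Quad, 4875 bp upstream of the TSS and with a score of 4.10, so no EDL or Dia peak was assigned to the gene. None of the 3 soleus-only peaks held a MEF2 match. Myl2, the regulatory light chain of the same fibers, had soleus-only peaks 2568 and 7896 bp upstream, with scores of 8.70 and 9.37, both with an E-box. A further Sol peak at Myl2, 11911 bp upstream, overlapped peaks of all other lists and scored lower, at 6.50.

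At Atp2a2 a shared promoter peak stood beside soleus-only upstream peaks. The promoter peak was called in all 4 lists, and its soleus-only peaks lay 8564 bp (score 13.0) and 24492 bp (score 8.89) upstream. Actn2, the Z-disc protein α-actinin 2, had 3 soleus-only peaks in the first intron, 968, 15661 and 17397 bp past the TSS, with scores of 10.7, 12.3 and 8.79. The nearest of these lay 880 bp from a Quad peak at the promoter, where no Sol peak was called. Its strongest Sol peak, with a score of 15.9, was shared with EDL and Dia.

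Sln, which encodes sarcolipin, an inhibitor of the calcium pump, had 3 low-scored soleus-only peaks (5.07, 4.68 and 3.73), and the 1 in its intron held a MEF2 match. Csrp3, the muscle LIM protein, had 2, with scores of 7.46 and 4.30. Myoz2, the calcineurin-binding Z-disc protein calsarcin-1, had 1 at a promoter with a score of 10.6 and 50062 bp from the nearest peak of another list, and 1 in intron 4 with a score of 8.79. Tpm3, slow tropomyosin, had 1 at an alternative promoter (score 8.12) beside a promoter shared by all lists (score 18.3 in Sol). Casq2, cardiac and slow calsequestrin, had 1 with a score of 5.83. Of the 20 genes, 11 had soleus-only peaks. Mb, the gene of myoglobin, and Mybpc1, slow myosin binding protein C, had 4 and 7 Sol peaks and none was soleus-only. Tnnt1 and Tnnc1, slow troponins, had no Sol peak.

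**Figure D3:**
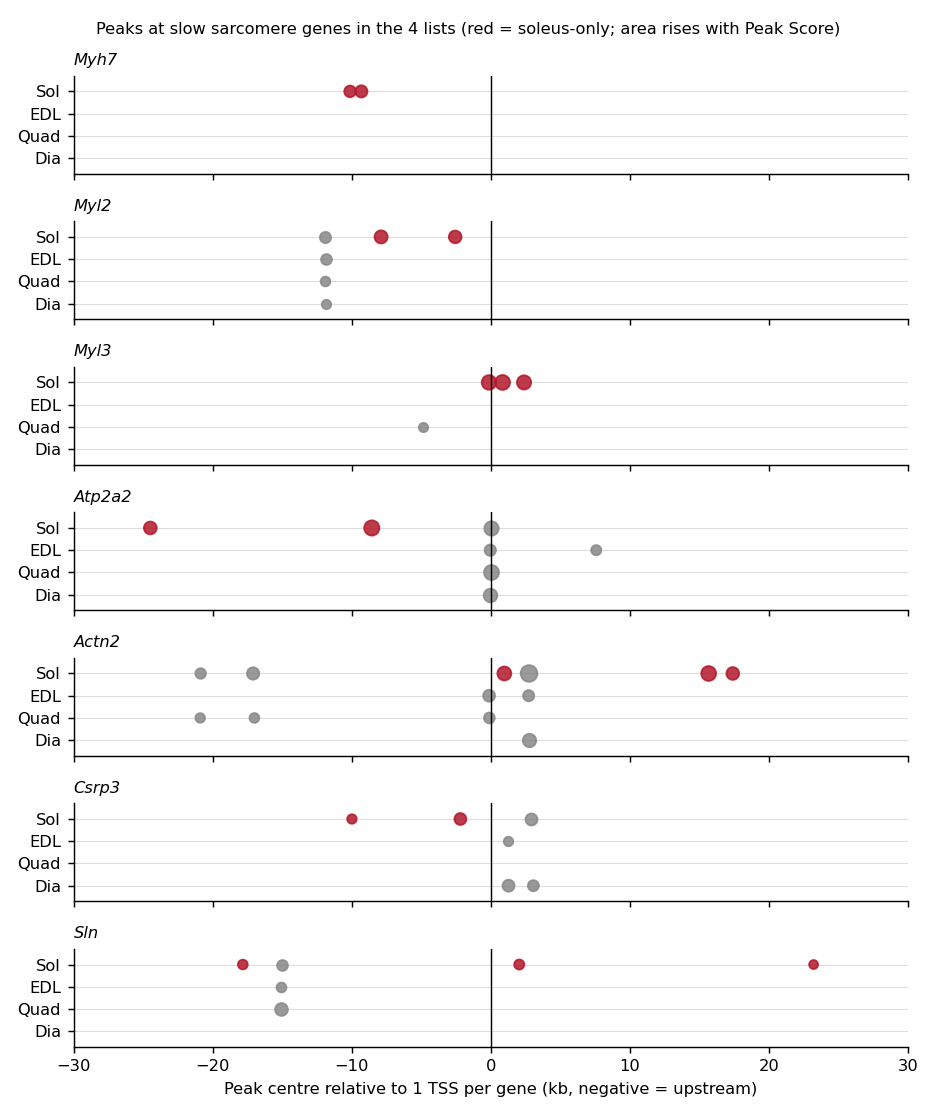
Positions of called peaks at 7 slow sarcomere genes in the 4 lists, in kb from 1 TSS per gene (x axis, negative is upstream), limited to 30 kb on either side. Red points are soleus-only peaks, gray points all others, and point area rises with Peak Score. At Myh7 the 2 Sol peaks stand alone, and at Atp2a2 a promoter peak is present in all 4 lists while 2 upstream peaks are in Sol only.

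At fast genes the interval of the soleus-only share included the 13.9% of all Sol peaks. Of 34 Sol peaks at 20 genes of the fast sarcomere and of glycolysis, 2 were soleus-only (5.88%, 1.63 to 19.1). They lay at Myh4 and at Pfkm, muscle phosphofructokinase (score 4.87). Outside promoters the count was 2 of 23, or 8.70%, and the interval of its difference from the other Sol peaks included 0 (-11.0 points, -17.3 to 7.07). The same genes had 4 of 43 EDL peaks in EDL only (9.30%). For Quad this was 9 of 54 (16.7%) and for Dia 1 of 21 (4.76%). The median percentile by score of these peaks was 82.7 in EDL, 87.3 in Quad and 30.4 in Dia. High scores at listed genes were thus not found in Sol alone. Genes of the tricarboxylic acid cycle and respiratory chain had 27 Sol peaks and none was soleus-only, with an upper limit of 12.5%. Of these 27 peaks 15 were promoters, and outside promoters the count was 0 of 12, with an interval of the difference from the other Sol peaks that included 0 (-19.7 points, -20.3 to 4.53). Genes of fatty acid uptake and oxidation had 5 of 49 (10.2%, 4.44 to 21.8), or 4 of 31 outside promoters (12.9%), where the interval of the difference also included 0 (-6.83 points, -14.6 to 9.13). Among them Plin5, a lipid droplet protein of oxidative muscle, had its 1 Sol peak at the promoter (score 7.55) with no peak in any other list, as had Bdh1, of ketone body oxidation, 9834 bp upstream of its TSS (score 3.92). Cd36, Hadh and Hadhb had 1 each.

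At regulators of the slow program the soleus-only share was near that of all Sol peaks outside promoters. Of 122 Sol peaks at these 22 genes, 25 were soleus-only (20.5%, 14.3 to 28.5), and outside promoters 24 of 101 (23.8%), a difference of 4.06 points from the other Sol peaks with an interval from -3.20 to 13.2. The 20 genes listed as regulators of the fast program had 21 of 106 (19.8%), or 18 of 90 outside promoters (20%). That list counts Vgll2, with 3 of 12 Sol peaks soleus-only, although the program it serves was not tested.

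Esrrg carried 6 of the 25, all intronic, with scores of 3.73 to 8.32, and 5 of them lay in intron 2. Rcan2, a calcineurin regulator, had 3, of which the strongest (score 8.32, in intron 2) held a MEF2 match. Prox1, a homeobox gene of slow fibers, had 2 of its 3 Sol peaks soleus-only, 62804 and 107431 bp past the TSS, 63794 and 91253 bp from the nearest peak of another list, and the farther (score 6.98) held a MEF2 match. The other Sol peak of Prox1, at the start of the gene, was shared by all lists. Ppara, a receptor that drives fatty acid oxidation, had a promoter peak with a score of 11.9, although peaks of all other lists lay within 551 bp. Ppargc1a, which encodes PGC1α, had 1 soleus-only peak 939 bp past the TSS (score 6.69), 705 bp from an EDL peak. Its other, with a MEF2 match (score 4.21), was intergenic, 428562 bp past the TSS and 1358 bp from a peak of another list. Rcan1, Nfatc1 and Ppp3ca, the calcineurin catalytic subunit, had 2 each, with scores of 3.82 to 7.36. Mef2a, Nfatc2, Ppargc1b, Esrrb and Tead1 had 1 each, scored from 3.63 at Mef2a to 5.54 at Esrrb, and that at Tead1 held a MEF2 match.

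In the list of fast-program regulators, Thrb, thyroid hormone receptor beta, had 4, and Sox6, a repressor of slow genes, and Vgll2, a TEAD cofactor, had 3 each. Eya4 and Maf had 2 each. The strongest was upstream of Smarcd3, a chromatin remodeling subunit, with a score of 12.3. Six4, Tbx15, Nfix and Hdac9 had 1 each.

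Markers of other cell types were measured the same way, since whole muscle was used, and their part in the soleus-only set was not tested. Endothelial markers had 9 of 61 Sol peaks soleus-only, or 9 of 53 outside promoters (17.0%, 9.20 to 29.2), with 4 at Flt1 and 1 each at Pecam1, Cdh5, Kdr, Tek and Sox17. Schwann cell markers had 3 of 13, smooth muscle and pericyte markers 1 of 12, at Kcnj8, fibroblast markers 1 of 20, at Col1a2, and satellite cell markers 1 of 10, at Pax7. Tendon markers had 0 of 12, leukocyte markers 0 of 2 and adipocyte markers 0 of 7. Over all Sol peaks the share was 13.9%, and outside promoters the interval of the difference from the other Sol peaks included 0 for each of these cell type lists. Of the heart muscle markers, Nppb and Myl4 had 1 each, out of 3 Sol peaks.

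**Figure D4:**
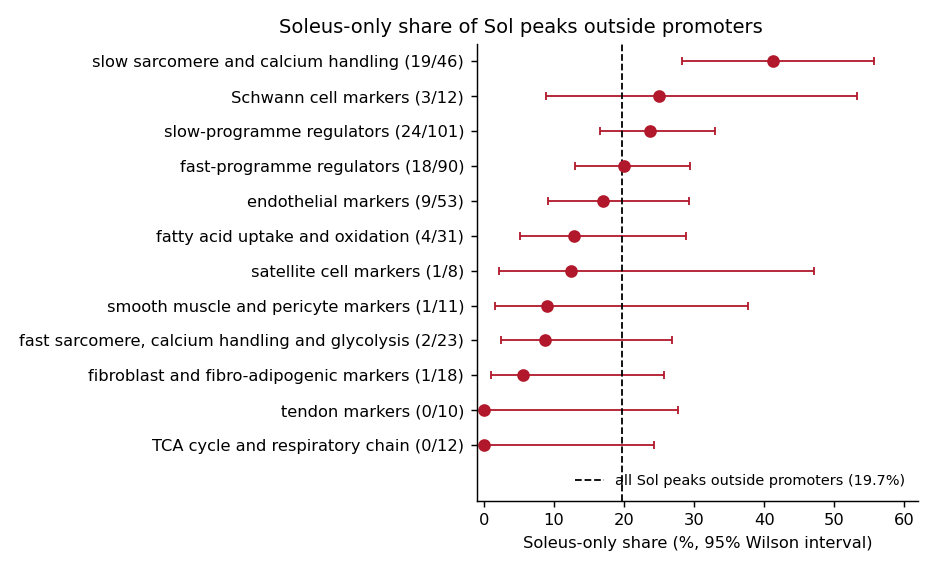
Soleus-only share of the Sol peaks outside promoters (x axis, percent, 95% Wilson intervals) for the gene lists with at least 8 such peaks. The numbers beside each list are soleus-only and all peaks, and the dashed line is the share over all Sol peaks outside promoters, 19.7%. The interval of the slow sarcomere list lies above the line.

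Sequence was searched for 16 motifs on both strands. The MEF2 motif was in 248 of 4004 soleus-only peaks (6.19%) and in 4.05% of the other Sol peaks, a difference of 2.14 points (1.39 to 2.96), and in 4.35% of all Sol peaks. Outside promoters the shares were 6.29% and 5.91%, and the interval of the difference included 0 (0.38 points, -0.44 to 1.26). DNA of the same width 2 kb downstream of the soleus-only peaks outside promoters held it in 2.04%.

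Outside promoters the interval of the difference included 0 for 8 of the 16 motifs (MEF2, AP-1, NFY, GATA, FOX, NUR77, the nuclear receptor monomer site and the site of the homeobox factor encoded by Six4). ERR (TCAAGGTCA), the site of estrogen-related receptors, was in 35 of 3865 soleus-only peaks (0.906%) and in 0.420% of the others, a difference of 0.49 points (0.21 to 0.85), against 0.440% in downstream DNA. SOX (ACAATGG) was in 4.29% and 2.98% (1.31 points, 0.66 to 2.05), and NFAT (TGGAAA) in 24.0% and 21.6% (2.44 points, 0.96 to 3.95). Among these peaks the NFAT difference was 1.23 points (-0.87 to 3.34) in the lowest 25% by score and 3.52 (1.06 to 6.12) above that level. With the rule applied again to the upper 50% of each list by score, it was 5.75 points (3.08 to 8.57). That set differs, since its peaks can have a lower-scored peak of another list beside them. For TEAD (GGAATG) the difference was 1.55 points (0.33 to 2.84), and for RUNX (TGTGGTT) 0.95 points (0.25 to 1.73), where downstream DNA held 5.41% against 4.84% in the peaks. The E-box (CAGCTG) was in 21.9% against 25.1% (-3.23 points, -4.68 to -1.74), while downstream DNA held it in 9.42%. By score it was rarer in the lowest 25% (-3.66 points, -5.70 to -1.59), and above that level the interval included 0 (-0.06 points, -2.55 to 2.57). ETS (CCGGAAG, -1.16 points) and SP1 (GGGCGG, 5.56% against 14.6%) were also rarer. GC content moved with these shares, at 50.1% in soleus-only and 53.3% in other Sol peaks outside promoters, and its part in the differences was not tested.

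Because the 2 sets differ in score, motifs were also compared within score levels. In the lowest 25% by score the ERR difference was 0.42 points (0.04 to 0.86) and in the upper 75% 0.71 (0.23 to 1.48), and the SOX difference was 1.20 (0.27 to 2.18) and 1.45 (0.39 to 2.78). The MEF2 difference was 1.14 points (0.03 to 2.30) in the lowest 25%, where its interval lay above 0, and 0.84 (-0.54 to 2.47) in the upper 75%. For NFAT, TEAD, RUNX, ETS and the E-box the interval included 0 at one of the score levels. Some motifs with no difference over all scores had one within a level. NFY was at 0.86 points (0.10 to 1.68) in the lowest 25% and -1.46 (-2.14 to -0.52) in the upper 75%. In the upper 75% NUR77 was at -0.93 (-1.30 to -0.29) and the nuclear receptor monomer at 1.73 (0.33 to 3.38). FOX was at -1.43 (-2.30 to -0.53) in the lowest 25%. For AP-1, GATA and the Six4 site the interval included 0 at both levels.

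Peaks of a single list were compared in 150 bp around their centers, outside promoters. MEF2 was in 4.63% of soleus-only peaks, 3.21% of EDL-only, 2.45% of Quad-only and 1.08% of Dia-only peaks. The differences from soleus-only were 1.43 points (0.47 to 2.35), 2.18 (1.49 to 2.95) and 3.55 (2.71 to 4.35). SOX was in 3.16% of soleus-only peaks and in 2.09%, 1.57% and 1.81% of the other sets, with all 3 intervals above 0. The same held for NFAT, in 17.6% of soleus-only peaks and in 15.7%, 14.3% and 14.7% of the other sets. ERR was in 0.750% of soleus-only peaks, against 0.360% in EDL-only and 0.258% in Quad-only peaks, while its difference from Dia-only peaks, 0.23 points, had an interval from -0.25 to 0.64. GC content was close in these sets, from 49.9% to 50.7%.

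**Figure D5:**
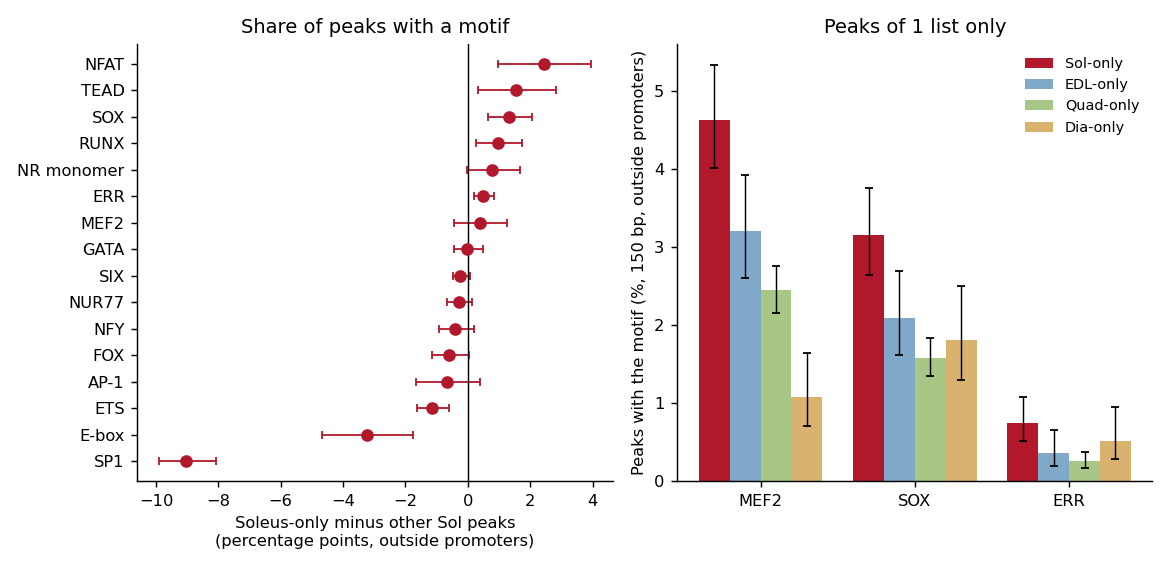
Left, difference in the share of peaks with each of 16 motifs, soleus-only minus other Sol peaks outside promoters (x axis, percentage points, 95% Newcombe intervals). Right, share of peaks of each single-list set with MEF2, SOX or ERR within 150 bp (y axis, percent, 95% Wilson intervals). MEF2 sits near 0 on the left and is highest in soleus-only peaks, at 4.63%, on the right.

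Among the 22 soleus-only peaks at slow sarcomere genes, 3 held a MEF2 match (13.6%, 4.75 to 33.3), 6 an E-box and 6 a TEAD motif (each 27.3%, 13.2 to 48.2), and none held ERR. The shares over all soleus-only peaks were 6.19% for MEF2, 21.9% for the E-box, 15.2% for TEAD and 0.924% for ERR, each within the interval of this list. Among the 25 at slow-program regulators, 4 held MEF2 (16%, 6.40 to 34.7) and 8 held NFAT (32%, 17.2 to 51.6), against 6.19% and 23.4% of all soleus-only peaks. The MEF2 interval lay just above the share over all soleus-only peaks and the NFAT interval included it, for members chosen with earlier results known. Several motifs were read in each list, and 1 of the 4 MEF2 peaks was the Ppargc1a peak 428562 bp from the TSS. Soft-masked bases, which mark repeats in the reference, made up at least 50% of 155 soleus-only peaks (3.87%) and of 0.917% of the other Sol peaks.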

How the data were processed

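ATAC-seq peak lists of 4 mouse muscles were used, 1 per muscle. The authors sequenced read pairs from transposed nuclei, aligned them to mm10 with Bowtie2 at default settings, kept 1 tag per position, called fixed-width peaks per library with HOMER findPeaks and annotated each to the nearest TSS. HOMER counts as promoter the stretch between 1 kb before and 100 bp after a TSS. The deposited Peak Score is a signal, a tag count scaled by library size by the authors. The scale is not given in the sources used here, and neither are a Tn5 offset nor removal of repeat or mitochondrial reads. Default alignment places a multiply mapping read at 1 of its positions, which can add reads of other loci to repeat peaks. Read totals were not used here, so the depth is unknown. A peak missing from a list was not called there, which can also mean a signal below that library's threshold.

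Soleus-only peaks were found with Python 3 scripts (pandas, scipy, pysam), tested on simulated data. Sequences came from the RefSeq FASTA of GRCm38.p6, the assembly of mm10, which held every Sol peak placed on an assembled chromosome. For 97.9% of Sol peaks whose transcript RefSeq lists, the deposited distance pointed to its start to within 100 bp. The motifs were MEF2 by its consensus, ERR (TCAAGGTCA), a nuclear receptor monomer (AAGGTCA, also inside ERR and NUR77), NUR77 (AAAGGTCA), NFAT (TGGAAA), AP-1 (TGACTCA), E-box (CAGCTG), the Six4 site (TCAGGTTTC), TEAD (GGAATG), RUNX (TGTGGTT), ETS (CCGGAAG), SP1 (GGGCGG), NFY (CCAATCA), the GATA factor site (AGATAAG), FOX (TGTTTAC) and SOX (ACAATGG). A match is a description, not a bound site. The percentile of a score is the share of the list at or below it.

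Genes named are the 15 with most soleus-only peaks (ties broken by the best score), members of 15 gene lists with a soleus-only peak, the 10 highest-scored peaks, the 10 genes with most Sol peaks and none in other lists, the adult myosin heavy chains and the 3 highest-scored peaks on each side of the limit. Genes with groups of soleus-only peaks, and list genes without any, were named after their values were seen. A few genes that this rule covers are not reported here. The rule, members and lists were chosen with earlier results of these data known.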

Additional observations from a re-analysis of the deposited data

How the results depend on the processing

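No paired analysis was possible because each muscle has 1 library. Of 116 values recomputed under alternative settings, 80 stayed within the counting interval of the reported value and 36 moved outside it. No difference changed sign, and most of the values are shares, which cannot. The soleus-only share of the Sol list (13.9%) was 16.1% when only overlapping peaks counted as shared, 12.5% with a 2 kb gap, 11% among the 20000 highest-scored peaks of each list, 8.37% in the upper 50% of each list, 17.3%, 20.5% and 15.8% with EDL, Quad or Dia left out of the comparison lists, and 2.23% for Sol peaks scored at least 2 times the lowest score of every other list. Their promoter share (3.47%) was then 5.75% by overlap, 6.36% and 7.88% in the 20000 highest and the upper 50%, 5.58% without Quad, 8.49% at the score limit and 5.04% with promoters taken as 1 kb on either side. The share over 50 kb from the TSS (35.5%) was 33.8% by overlap, 28.0% and 25.98% in the 20000 highest and the upper 50%, 33.8% without Quad and 18.9% at the score limit. The MEF2 difference (2.14 points) was 3.46 and 4.18 points in the 20000 highest and the upper 50%, 0.38 outside promoters and 1.14 (0.03 to 2.30) outside promoters in the lowest 25% by score. The slow sarcomere share (39.3%) was 59.5% in the upper 50% and 41.7% (15 of 36) at the score limit. For the 20000 highest and the upper 50% the rule was applied again to the shortened lists. A peak counted as soleus-only there can have a lower-scored peak of another list beside it. In the upper 50% 1205 of 14392 Sol peaks counted, although 318 of the 4006 soleus-only peaks scored above the median. Outside promoters the ERR difference (0.49 points) was 0.19 in the upper 50%, with an interval from -0.22 to 0.90, and 1.2 at the score limit (0.20 to 3.44), the NFAT difference (2.44) was 5.75 in the upper 50% and 4.79 at the score limit, and the SOX difference at the score limit was 0.35 with an interval from -1.16 to 3.06. The cause of these changes was not tested. The planned removal of repeats by the deposited detailed annotation could not be run, because that column is empty. Leaving out peaks with at least 50% soft-masked bases was tried in its place, and each of these results stayed within its interval. That setting, the restriction to the lowest 25% by score and the slow sarcomere share outside promoters were chosen after seeing the data. Each muscle has 1 library, so no spread between animals or libraries could be measured, and the read depth and calling threshold of the lists are not known to be equal. Most soleus-only peaks scored low in the Sol list, and a peak missing from another list is an uncalled peak, not closed DNA.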
